A study of Drosophila melanogaster with 18 samples.

Results

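The seminal fluid protein genes of Drosophila melanogaster were taken by gene symbol, as those named Acp at the cytological positions of the classical accessory gland genes, those named Sfp, the Mst57D genes and Dup99B. This gave 48 genes of the 16747 entries in the count tables. The rule read symbols and not measured levels, but the members were chosen with earlier results of these data known. The gene of the sex peptide is entered as SP and not by its older name Acp70A, so it lies outside the 48 and is given beside them.

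RNA was sequenced from whole flies at 5 days of age in 6 groups with 3 libraries each. The founders (F0, generation 0) carry a label that lists 10 strains. They are Canton-S, Oregon-R-C, w1118 and Harwich, the lines BER_2, DGRP-100 and Wild_1A, and the mutant stocks flare3 (flr3), Oregon R flare3 (ORR, flr3) and multiple wing hairs (mwh). INT and NINT flies are labelled as genetically heterogeneous flies of generation F12, and each of the 3 populations was sampled as males and as females. The labels do not spell out INT and NINT, the title of the series concerns intelligence and longevity, and neither the number of flies in a library nor their mating state is given. They also do not say whether replicates came from separate cultures, so p-values here measure the spread between these libraries, which may be technical.

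Seminal fluid proteins are made mainly in the paired accessory glands of the male, with contributions from the ejaculatory duct and bulb, and are passed to the female with the sperm. They include small peptide hormones, proteases and their inhibitors, lectins and large glycoproteins, and they act on egg laying, on the female's readiness to mate again, on sperm storage and on the mating plug. Acp genes were first cloned as transcripts of the accessory gland, whereas many Sfp genes were named after their products had been found in seminal fluid transferred to females.

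Male libraries held 31.8 to 39.2 M counts and female libraries 31.6 to 58.3 M counts. Ribosomal RNA entries took 1.92% to 10.7% of the counts in males and 7.34% to 48.3% in females, with 27.3% to 48.3% in F0 females and 7.34% to 8.94% in NINT females. Among males, INT male 3 stood apart from INT males 1 and 2. The sum of Yp1, Yp2 and Yp3, the yolk protein genes expressed in females, reached 1178 plain CPM (counts per 1e6 counts, with no further scaling) in F0 male 1 and lay at 6.80 in F0 male 3, while females lay between 4547 and 23624. roX1, an RNA of the male dosage compensation complex, lay at 1044 to 1651 plain CPM in males and 2.79 to 39.9 in females, so each library matched its labelled sex.

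The genes were mostly small, autosomal and grouped. No member lay on the X, which held 15.3% of all entries, and 22 members (45.8%) lay on 2L, which held 20.1%. The median predicted protein length was 88.5 residues, from 25 residues to the 912 of Acp36DE, against 391 over 13986 coding genes of the reference annotation. Of the members, 27 (56.2%) encoded fewer than 100 residues, against 6.0% of all coding genes. With a largest gap of 10 kb, 20 members fell into 6 clusters. The largest was Sfp53D, Acp53C14a, Acp53C14b, Acp53Ea and Acp53C14c on 2R, followed by Mst57Dc, Sfp96F, Mst57Db and Mst57Da on 3R.

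In 16 cases the gene lay inside or across another gene, and 3 members shared exonic bases with it. Acp95EF lay wholly within exons of the oppositely transcribed Spase22-23, a subunit of the signal peptidase complex. Sfp78E shared 134 and 24 of its 829 exonic bases with a pair of other genes, and Sfp84E shared 27 of its 685. How strand was used in counting is not given, so the values of this pair are uncertain. In males the level of Spase22-23 was 0.645 to 0.744 times that of Acp95EF in every library. In females it was 4.49 to 199 times that of Acp95EF, with 20.5 plain CPM beside 0.103 in F0 female 1, so at most a small part of the Spase22-23 reads of that library was counted as Acp95EF. Whether reads of Acp95EF were counted as Spase22-23 in males was not tested.

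Levels within males spanned a wide range, and few genes supplied most of the RNA of the set. Of the 48 members, 47 had counts in all 9 male libraries, and the exception was Acp24A4. On the scale of CPM with TMM-scaled library sizes, 6 members averaged over 1000 CPM and 23 averaged under 100 CPM. The 5 members with the largest shares (Acp36DE, Sfp60F, Mst57Db, Acp53C14a and Acp95EF) together held 50.4% of the counts of the set, and Acp36DE alone held 17.6%.

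Ranking by level per length, as mean CPM per kb of exon over the 9 males, changed the order. Mst57Db led with 7426 CPM per kb, followed by Sfp60F with 4896 and Acp95EF with 4693. In NINT males alone Acp95EF lay above Sfp60F, at 2958 ± 206 against 2039 ± 221 CPM per kb (SD, n = 3 each). The lowest levels over the 9 males were those of Sfp33A4 with 30.5, Sfp33A2 with 23.7 and Sfp38D with 9.10 CPM per kb. The highest level per length was 816 times the lowest, and SP lay at 1713 CPM per kb, between the fifth and the sixth member.

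As a sum, the set took a larger part of the RNA in F0 than in NINT males, and INT males did not form a tight group. The summed plain CPM was 14227, 19379 and 21731 in F0 males 1 to 3. It was 27706, 26887 and 10709 in INT males 1 to 3 and 11917, 9613 and 12032 in NINT males 1 to 3. All 3 F0 males lay above all 3 NINT males, while INT male 3 lay among the NINT males. The means were 18446 ± 3838 in F0, 21767 ± 9586 in INT and 11187 ± 1365 in NINT (SD, n = 3 each). In whole flies, fewer gland cells and less RNA per gland cell cannot be told apart.

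**Figure D1:**
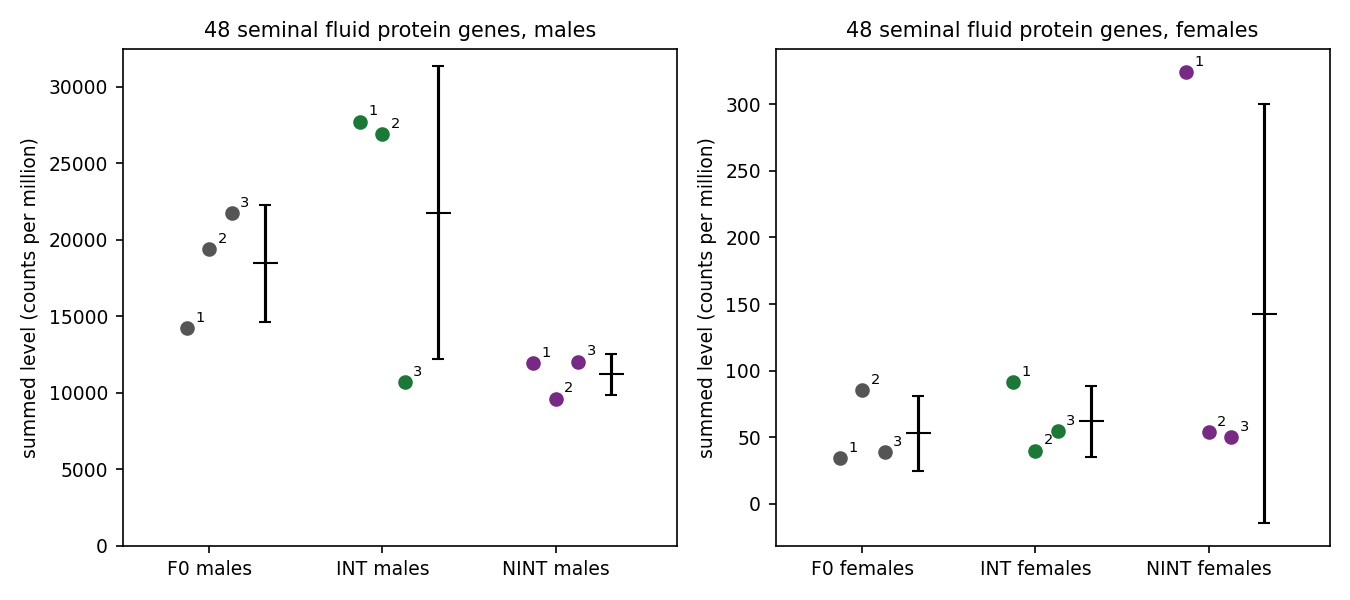
Summed level of the 48 genes in plain CPM in each male (left) and female (right) library. Points are libraries numbered by replicate, and the bars show the mean ± SD of 3 libraries. INT male 3 (10709) lies among the NINT males, and NINT female 1 (324) lies above the other 8 female libraries.

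Comparing INT with NINT males asks how the pair of F12 populations differed. No member passed an adjusted p under 0.05 (edgeR's quasi-likelihood test, Benjamini-Hochberg adjusted over 15051 genes), where 6 genes of all tested passed, or 0.0399%. The fitted fold change was above 0 in 45 of 48 members, against 51% of all genes. This direction was not particular to the members. In a list of 23 testis genes, 22 were also above 0, with a median log2 fold change of 0.38 and 0 called. The median log2 fold change was 0.73 over the members and 0.01 over all genes, and the middle range of the members, from the lower to the upper quartile, was 0.42 to 1.14. At an unadjusted p under 0.05 stood 29 members, where 2473 of all 15051 genes did. In 14 members every INT male lay above every NINT male, where 9.66% of all genes did so, and in 0 members did every INT male lie below, where 10.8% of all genes did.

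These counts rested on INT male 3. All 48 members had their lowest INT level in that library, and 44 members lay above the highest NINT value in both INT males 1 and 2. In INT male 3 itself, 14 members lay above all NINT males and 21 below all of them. The shares of all genes with these orders were not counted, so they do not set the members apart. INT male 3 also differed over all genes with at least 10 counts in a pair of libraries. The mean chi-square per gene was 468 and 429 for INT male 3 with INT males 1 and 2, and 155 between INT males 1 and 2. Without INT male 3, 42 members were called, where 26.1% of all genes were, and the median log2 fold change was 1.0004. DESeq2 on all 9 libraries called 20 members, where it called 6.21% of all genes. Leaving out each of the other males in turn called 0.

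Some other male reproductive lists were also low in INT male 3 and others were not, and their part in the result was not tested. The summed level of 23 testis genes was 2378 plain CPM there, 6662 and 4701 in INT males 1 and 2, 3102 to 4101 in NINT males and 5071 to 8147 in F0 males. The 7 duct and bulb genes in the tables summed to 3667 plain CPM in INT male 3, 15069 and 13070 in the other INT males, 5047 to 6584 in NINT males and 7486 to 12871 in F0 males. prd, which encodes the transcription factor Paired needed for accessory gland development, stood at 22.01, 20.17 and 19.58 CPM in INT males 1 to 3.

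The comparisons with the founders share the F0 libraries, so their values are set side by side only. In INT against F0 males, 2 members were called, Acp24A4 higher and Sfp96F lower, where 1.82% of all genes were called. The median log2 fold change was 0.14 over the members and −0.03 over all genes, with 28 members above 0 against 47.5% of all genes. In 4 members every INT male lay above every F0 male and in 6 below, where 10.9% and 11.7% of all genes did so. In NINT against F0 males, 6 members were called, where 5.04% of all genes were called. Acp24A4 rose, and Sfp26Ac, Sfp33A4, Sfp38D, Sfp70A4 and Sfp96F fell. Here 4 members were above 0 against 50.3% of all genes, the median log2 fold change was −0.73 over the members and 0.0031 over all genes, and in 35 members every NINT male lay below every F0 male, where 24.1% of all genes did so. Every NINT male lay above every F0 male in 3 members, where 24.3% of all genes did.

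The testis list had fitted levels below those of F0 males in both F12 populations, with 0 genes called. All 23 testis genes had a fitted fold change below 0 in NINT against F0, with a median log2 fold change of −0.94, and all 23 did in INT against F0, with a median of −0.56. The 7 duct and bulb genes had medians of −0.05 and 0.21, and the part of these tissues in the members' differences was not tested.

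The number of calls against F0 in NINT males moved with the fit. It was 38 without INT male 3, which is in neither group but enters the shared estimate of spread, and 36.5% of all genes were called in that fit. It was 36 in a fit of the 6 compared libraries only, where 32.5% of all genes were called, and 27 with DESeq2, where 20.8% were. It was 1 without F0 male 2, F0 male 3 or any single NINT male, where 0.554% to 1.05% of all genes were called. In INT males it was 1 without F0 male 2, F0 male 3, INT male 1, INT male 2 or NINT male 2, where 0.185% to 0.864% of all genes were called. It was 6 there without INT male 3 and 6 with DESeq2, where 3.17% and 9.41% of all genes were called. Leaving out the 4 males with over 500 plain CPM of yolk protein genes called 0 members and 0 of all 15287 genes in either comparison, with 1 F0 male and 1 NINT male left.

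**Figure D2:**
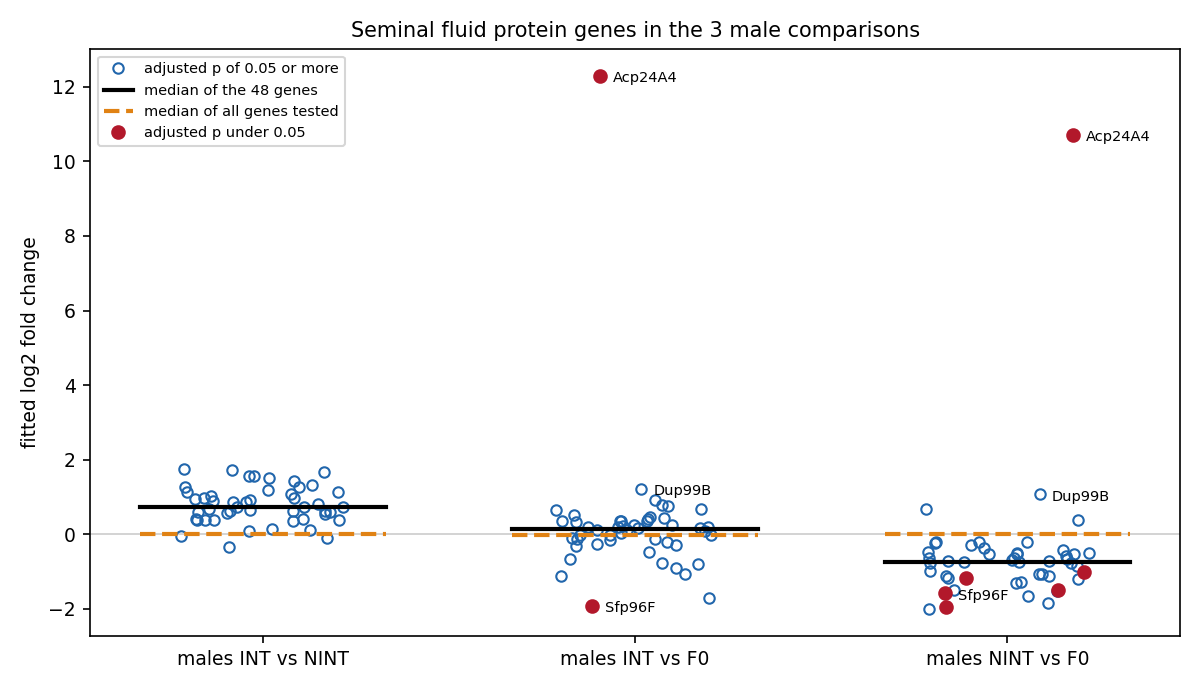
Fitted log2 fold changes of the 48 genes in the 3 male comparisons, with 1 point per gene. Filled points passed an adjusted p under 0.05, solid lines are the medians of the 48 genes (0.73, 0.14 and −0.73), and dashed lines are the medians of all genes tested. Most points lie above 0 in INT against NINT and below 0 in NINT against F0, and Acp24A4 stands far from the rest in the comparisons with F0.

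Among the peptides that act on the mated female, SP, the sex peptide that lowers female receptivity and raises egg laying through its receptor SPR, passed no male test. Its level was 374, 344 and 520 CPM in F0 males, 466, 579 and 257 in INT males and 335, 273 and 288 in NINT males. All NINT males lay below all F0 males, whereas the INT males overlapped both groups. The log2 fold change of INT over NINT was 0.54 ± 0.29 (SE; adjusted p = 0.397).

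Dup99B, a peptide of the ejaculatory duct related to the sex peptide, had a different pattern. It lay at 211, 219 and 316 CPM in F0 males, 742, 643 and 351 in INT males and 431, 519 and 614 in NINT males. All 6 F12 libraries lay above all 3 F0 libraries. The log2 fold changes over F0 were 1.22 ± 0.30 in INT and 1.07 ± 0.30 in NINT, with adjusted p = 0.0813 and 0.0714, so neither passed.

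Acp26Aa encodes ovulin, which stimulates ovulation, and Acp26Ab encodes a short peptide from the adjacent gene. Acp26Aa lay at 196, 281 and 305 CPM in F0, 446, 482 and 197 in INT and 171, 131 and 169 in NINT males. Every INT male was above every NINT male, with a log2 fold change of 1.26 ± 0.33 (adjusted p = 0.170). Its neighbour Acp26Ab ran differently, at 295, 417 and 433 CPM in F0, 618, 678 and 506 in INT and 691, 583 and 573 in NINT males. All F12 males lay above all F0 males for Acp26Ab, whose log2 fold change of NINT over F0 was 0.69 ± 0.19 (adjusted p = 0.0733).

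Acp36DE, a large glycoprotein needed for sperm storage, was the most abundant member by counts. Its level was 2319, 3556 and 3817 CPM in F0, 4330, 4693 and 2447 in INT and 2146, 1501 and 2020 in NINT males. The NINT libraries lay below all others, and the log2 fold change of INT over NINT was 1.02 ± 0.31 (adjusted p = 0.196). Acp29AB, a lectin with a role in sperm retention, was far lower, at 25.9, 32.8 and 34.6 CPM in F0, 45.1, 44.9 and 36.04 in INT and 30.2, 22.7 and 28.7 in NINT males. Its INT libraries were above all others, with a log2 fold change of 0.63 ± 0.17 over NINT (adjusted p = 0.175). Acp53Ea, a small secreted protein of the cluster on 2R, averaged 701 ± 121 CPM in F0, 964 ± 338 in INT and 505 ± 86.8 in NINT (SD, n = 3 each).

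The protease inhibitors of the set did not pass a test either. Acp62F, a trypsin inhibitor, lay at 148, 198 and 202 CPM in F0, 149, 125 and 71.7 in INT and 100, 73.3 and 88.8 in NINT males. All NINT males were below all F0 males, with a log2 fold change of −1.06 ± 0.27 (adjusted p = 0.0591). Acp76A, a serpin, lay at 127, 190 and 191 CPM in F0, 190, 176 and 72.9 in INT and 63.2, 43.3 and 75.1 in NINT males. Its NINT libraries were again below all F0 libraries, with a log2 fold change of −1.48 ± 0.37 (adjusted p = 0.0569).

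The Mst57D genes encode small accessory gland products and lie side by side on 3R. Mst57Db averaged 1592 ± 416 CPM in F0, 1790 ± 531 in INT and 962 ± 60.4 in NINT males (SD, n = 3 each). Mst57Da averaged 753 ± 135, 1299 ± 557 and 656 ± 74.1 CPM in the same order, and Mst57Dc 262 ± 47.8, 303 ± 118 and 121 ± 12.1. None of the 3 was called in any male comparison, and the smallest adjusted p was 0.0669, for Mst57Dc in NINT against F0.

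Sfp96F lies within this cluster, between Mst57Dc and Mst57Db (FBgn0261061; dm6 chromosome 3R, 25830061 to 25830228, minus strand), and was the member called lower in both F12 populations. It lay at 64.5, 61.5 and 117 CPM in F0 males, 21.6, 24.1 and 18.4 in INT males and 18.8, 28.0 and 34.2 in NINT males. No F12 library reached the lowest F0 library. The log2 fold changes over F0 were −1.92 ± 0.30 in INT (adjusted p = 0.0247) and −1.58 ± 0.30 in NINT (adjusted p = 0.0276). Over 18 other fits of each comparison the sign did not change, and the call was kept in 10 fits for INT and 11 for NINT. With single libraries left out, the adjusted p ranged from 0.0307 to 0.0769 in INT, where it was over 0.05 without F0 male 2, F0 male 3, INT male 1, INT male 2 or NINT male 2. In NINT it ranged from 0.00716 to 0.110 and was over 0.05 without F0 male 2, F0 male 3 or any NINT male.

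Acp24A4 (FBgn0051779; dm6 chromosome 2L, 3693184 to 3693889, minus strand) was almost without counts in F0 males and well expressed in both F12 populations. Raw counts were 8, 0 and 0 in F0 males, 20666, 18221 and 2820 in INT males and 4546, 3282 and 5412 in NINT males. The lowest F12 library thus held more than any F0 library by orders of magnitude. The ratio of summed counts over F0, per library total, was 5153 in INT (95% exact binomial interval 2615 to 11936) and 1722 in NINT (873 to 3988), and these intervals cover counting error only. The adjusted p was 0.00390 in INT and 0.00441 in NINT, and the call was kept in 17 of 18 other fits of each. The exception was the fit that left 1 F0 male and 1 NINT male.

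Genes beside Acp24A4 did not share a single pattern. CG3513, which ends 1 base from it, had 316, 1 and 0 counts in F0 males and 50 to 153 in the F12 males. CG43165, 541 bases on the other side, had 0, 2 and 2 counts in F0 males and 15 to 47 in the F12 males. Sfp24C1, the other member of this cluster, had the opposite order to Acp24A4, at 34.4, 44.3 and 49.99 CPM in F0, 25.4, 23.99 and 11.9 in INT and 25.3, 20.0 and 20.4 in NINT males. All F12 males lay below all F0 males for Sfp24C1 (adjusted p = 0.106 in INT and 0.0802 in NINT). How reads that match several genes were counted is not given.

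The other members called in NINT against F0 males were of low to moderate level. Sfp70A4 lay at 96.1, 89.7 and 151 CPM in F0, 74.8, 83.8 and 41.0 in INT and 38.7, 41.7 and 39.7 in NINT males, with a log2 fold change of −1.49 ± 0.29 (adjusted p = 0.0295). Sfp26Ac lay at 20.4, 25.4 and 27.8 CPM in F0, 25.9, 30.4 and 15.8 in INT and 11.1, 10.7 and 10.8 in NINT males, with a log2 fold change of −1.17 ± 0.24 (adjusted p = 0.0344). For both genes every NINT male lay below every F0 male, and Sfp26Ac was lower in NINT than in any INT male too. Sfp38D lay at 11.3, 15.8 and 14.8 CPM in F0 and 8.02, 6.28 and 6.67 in NINT males (log2 fold change −0.9995 ± 0.22, adjusted p = 0.0405). Sfp33A4 lay at 8.73, 11.6 and 16.2 CPM in F0 and 2.50, 3.50 and 3.55 in NINT males (log2 fold change −1.94 ± 0.43, adjusted p = 0.0413). Each of these 4 calls was lost in 7 to 9 of 18 other fits.

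**Figure D3:**
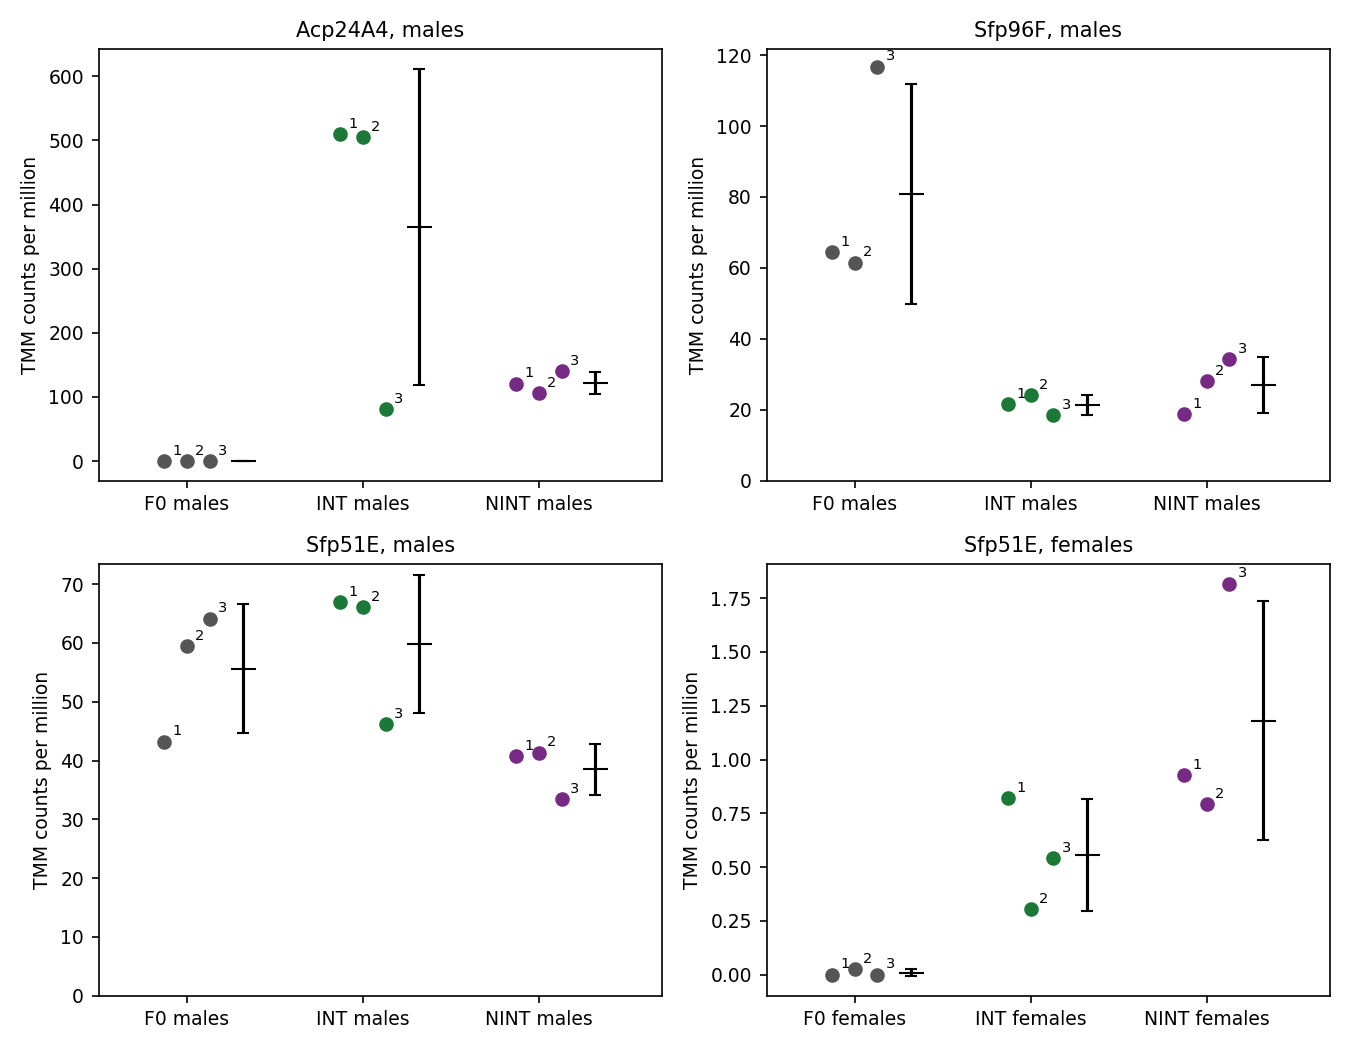
Levels of Acp24A4, Sfp96F and Sfp51E in CPM with TMM-scaled library sizes. Points are libraries numbered by replicate, and bars show the mean ± SD of 3 libraries. Acp24A4 is near 0 in the F0 males, Sfp96F is highest in the F0 males, and Sfp51E overlaps between F0 and INT males with all NINT males below them, and is lowest among females in F0.

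The largest fitted fold changes of INT over NINT males belonged to Sfp60F (1.74 ± 0.54), Sfp24Ba (1.74 ± 0.58), Sfp24Bc (1.68 ± 0.53) and Acp24A4 (1.58 ± 0.72). Sfp60F lay at 1803, 2645 and 2547 CPM in F0, 3679, 3789 and 680 in INT and 853, 712 and 875 in NINT males. INT male 3 was thus below all NINT males for Sfp60F, and likewise for Sfp24Ba (21.4 CPM against 22.7 to 34.6) and Sfp24Bc (4.19 against 4.50 to 5.58). The smallest belonged to Sfp96F (−0.34 ± 0.30), Sfp24C1 (−0.10 ± 0.28), Acp26Ab (−0.04 ± 0.19) and Acp98AB (0.09 ± 0.40). Acp98AB, a short accessory gland transcript, lay at 319, 264 and 630 CPM in F0, 220, 245 and 97.3 in INT and 165, 171 and 195 in NINT males.

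Expressing each gene as a share of the set's own counts removes the overall level and shows the composition. As a description, with no test, 5 members had a higher share in all INT than in all NINT males, and 17 had a lower share. Shares are defined within the set, so no count over all genes stands beside these numbers. A larger share of abundant members also lowers the shares of the others. Dup99B held 1.496%, 1.18% and 1.52% of the set in F0 males, 2.77%, 2.33% and 3.05% in INT males and 3.50%, 5.24% and 5.25% in NINT males. The 3 groups did not overlap in the share of Dup99B, whereas its levels overlapped between INT males (351 to 742 CPM) and NINT males (431 to 614 CPM). Sfp24C1 held 0.238% to 0.244% in F0 males, 0.0869% to 0.103% in INT males and 0.174% to 0.206% in NINT males, and so was lowest in all INT libraries, INT male 3 included.

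INT male 3 resembled the NINT males for some shares and not for others. Acp26Ab held 2.09% to 2.24% in F0 males, 2.31%, 2.45% and 4.39% in INT males 1 to 3, and 4.90% to 5.89% in NINT males. Sfp60F held 12.3% to 14.2% in F0 males, 13.7%, 13.7% and 5.90% in INT males 1 to 3 and 6.93% to 7.49% in NINT males. Acp54A1 held 0.137% in INT male 3 and 0.380% to 1.18% in the other males. Acp33A held 1.06%, 0.991% and 1.01% in INT males 1 to 3, below the 1.44% to 1.59% of all F0 and NINT males.

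**Figure D4:**
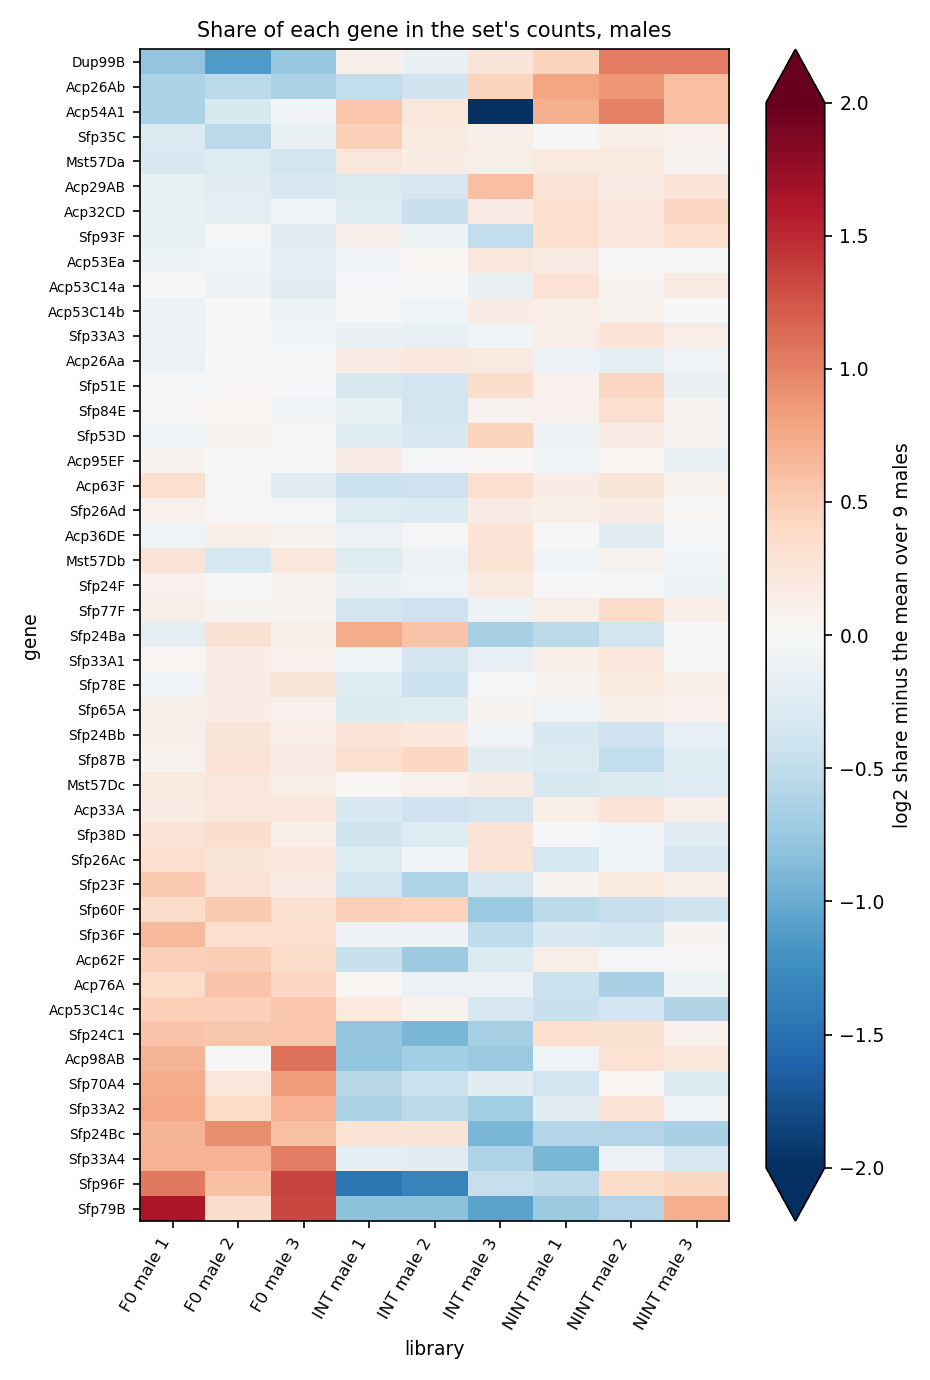
Share of each of 47 genes (Acp24A4 left out) in the set's counts, as log2 share minus its mean over the 9 males, with genes ordered by their mean in F0. Columns are male libraries, red is above and blue below the gene's mean, and values beyond ±2 take the end colour. Dup99B and Acp26Ab are low in the F0 columns, Sfp79B and Sfp96F are high there, and the INT male 3 column has Acp54A1 far below its mean.

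Other genes of the same pathway passed no test between males. Of 8 genes of the sex peptide network, which bind the sex peptide to sperm or prepare it for storage (aqrs, antr, intr, Sems, CG9997, CG17575, lectin-46Ca and lectin-46Cb), 0 were called in any of the 3 male comparisons. Their median log2 fold change was 0.50 in INT against NINT, with 8 of 8 above 0, and −0.35 in NINT against F0. Of 5 accessory gland serpins, 0 were called, with a median of 0.66 in INT against NINT. Of 3 regulators of the gland (prd, Abd-B and dve), 0 were called in males, with a median of 0.42 in INT against NINT. SPR, the receptor, stood at 9.27 to 16.2 CPM in males and 7.95 to 17.2 CPM in females. Of the lists for other tissues (testis, ejaculatory duct and bulb, spermatheca and female tract, yolk and roX RNAs) 0 genes were called between males. The yolk genes still had large fitted changes, with median log2 fold changes of −6.85 in INT against NINT males and −6.65 in INT against F0 males. They summed to 11.3, 14.7 and 13.6 plain CPM in INT males, 136, 809 and 983 in NINT males and 1178, 563 and 6.80 in F0 males. The source of this RNA in males was not tested. Between females, the only calls on the lists of this paragraph came in NINT against F0, where 22.5% of all genes were called. Yp1 and Yp3 rose there, and Abd-B, bol, CG32834 and Send1 fell.

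Every member had the higher fitted level in males, by far for most, where 51.3%, 54.7% and 58.1% of all genes did in F0, INT and NINT. Of the 48 members, 47 were called higher in males in F0, 48 in INT and 48 in NINT, where 32.8%, 39% and 43.3% of all genes were called higher in males. The exception in F0 was Acp24A4, at 8 counts over 3 males and 3 over 3 females. The median log2 fold change over the members was 9.29 in F0, 9.07 in INT and 6.74 in NINT, beside 0.05, 0.20 and 0.40 over all genes. Setting females at or under 3 summed counts to that floor, which applied to 9, 5 and 1 members, gave medians of 10.2, 9.34 and 6.74 from summed counts. The smallest difference in INT and NINT was that of Acp63F, at 2.85 ± 0.25 and 2.24 ± 0.25.

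The NINT group, with the lowest sex difference, also held the female library with the highest sum of the members. The 48 members summed to 34.5, 85.6 and 38.7 plain CPM in F0 females 1 to 3, 91.3, 39.9 and 54.3 in INT females and 324, 53.6 and 50.3 in NINT females. NINT female 1 was far above every other female, and INT female 1 and F0 female 2 were next. Leaving out these 3 libraries, which held the highest member sums, was bound to raise the difference between the sexes. The median log2 fold changes of males over females were then 12.5 in F0, 12.3 in INT and 11.05 in NINT. NINT thus remained the lowest, and the reason for its lower value was not tested.

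In NINT female 1 all 48 members had counts. On the plain CPM scale, over the 46 members that averaged at least 5 in NINT males, the median level was 2.39% of the male mean, with quartiles of 1.74% and 3.29%. In INT female 1 the median was 0.340%, with 3 members at 0, and in F0 female 2 it was 0.246%, with 4 members at 0. In the remaining 6 female libraries the median lay between 0 and 0.0241%, and 17 to 26 members had no count. A count of 0 allows a level of up to 0.0514 to 0.0949 plain CPM (3 counts of the library total).

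The members' order of level in these 3 females followed that of males. Across the 48 genes, which share a library and its depth, Spearman's rho with the male mean of the same group was 0.95 in NINT female 1, 0.80 in INT female 1 and 0.71 in F0 female 2. In the other 6 females it was 0.03 to 0.19. The largest counts in NINT female 1 were 3353 for Acp36DE, 1165 for Acp53C14a and 1055 for Sfp60F. Dup99B had 647 counts in NINT female 1, 28 in F0 female 2, 27 in INT female 1 and 0 or 1 elsewhere, and SP had 240, 26, 57 and 0 in the same order.

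Genes of other male tissues were also present in these libraries, and the source of the traces was not tested. Peb, PebII and Anp, products of the ejaculatory bulb and duct, stood at 39.8, 24.9 and 10.9 CPM in NINT female 1. Peb was 16.9 in INT female 1, 13.02 in F0 female 2 and 0 to 0.276 in the other 6. The 23 testis genes had a median of 0.479% of the male mean in plain CPM in NINT female 1, 0.285% in INT female 1 and 0.325% in F0 female 2, and of 0 to 0.0580% in the other 6. In INT female 1 and F0 female 2 the testis median was thus close to that of the members, while in NINT female 1 the members' median was the higher. The roX1 level was 29.6 CPM in NINT female 1, 34.3 in INT female 1 and 17.4 in F0 female 2, within the range of 5.62 to 27.9 of the other 6 only for F0 female 2.

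**Figure D5:**
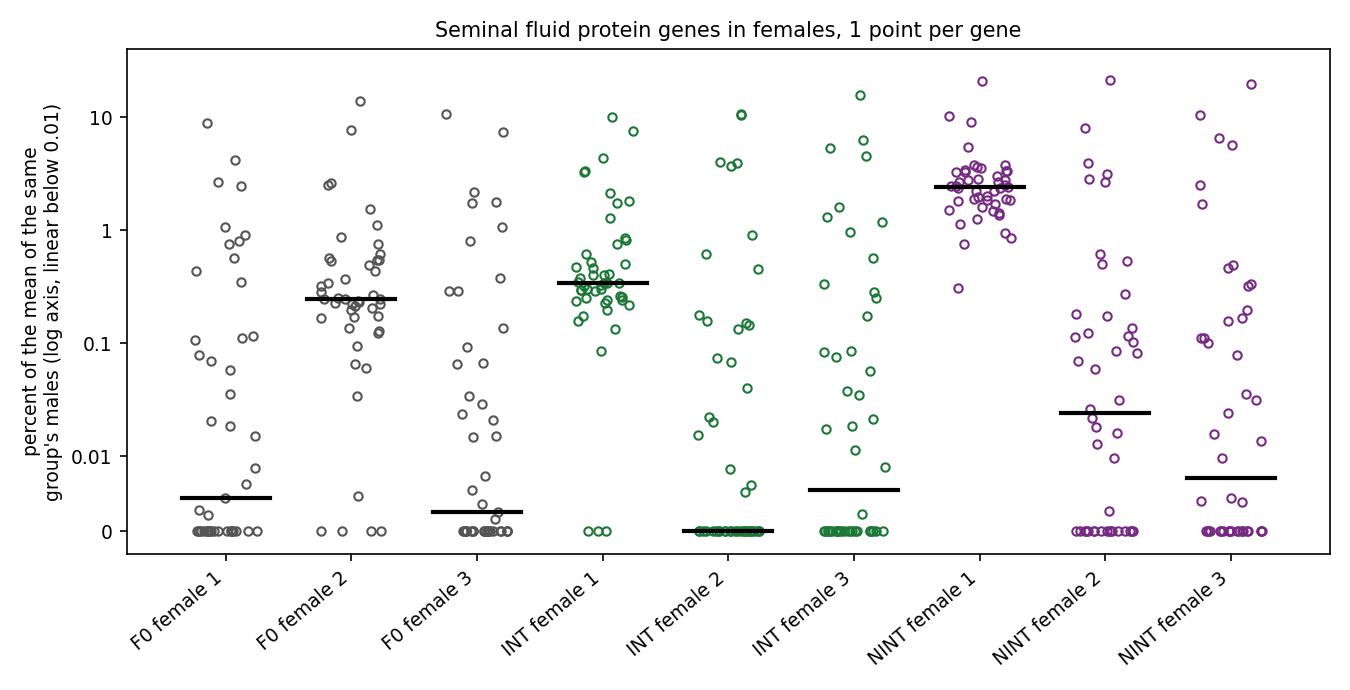
Level of each gene in each female library as a percentage of the mean of the same group's males, for genes with at least 5 plain CPM in those males. The axis is logarithmic above 0.01% and linear below, and thick lines are medians. F0 female 2, INT female 1 and NINT female 1 have medians of 0.246%, 0.340% and 2.39%, while many genes lie at 0 in the other 6 libraries.

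A few members had steady counts in females whether or not the rest of the set was present. Of the 48 members, 13 had counts in all 9 females. Not all 13 were steady, since Acp36DE had 84 to 3353 counts and Acp53C14a 1 to 1165, each highest in NINT female 1. For 7 members the female median reached 1% of the male mean, both in plain CPM. Acp63F was the highest of these, with 1401, 1914 and 1454 counts in F0 females, 711, 922 and 1317 in INT females and 1812, 1610 and 1718 in NINT females, and a median of 36.4 plain CPM or 15.1% of the male mean. Acp63F lies within the span of Scsalpha1 on the opposite strand, with no exonic base shared. Sfp84E had 45 to 102 counts in every female, a median of 7.83% of the male mean. Sfp78E had 20 to 89 counts, Sfp33A2 3 to 20 and Sfp33A4 2 to 18. None of these 5 had its highest count in NINT female 1. All 5 lay inside or across a gene on the opposite strand, where 16 of the 48 members lay inside or across another gene. These genes were Os-C for Sfp84E, CG11248 for Sfp78E and Pde1c for Sfp33A2 and Sfp33A4. How strand was used in counting is not given, and whether reads of those genes entered these counts was not tested.

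Between female groups, 31 members passed the filter on low counts. In INT against NINT females 0 members were called, where 0.995% of 13169 genes were called. An unadjusted p under 0.05 (edgeR) was reached by 1 member, where 1978 of the 13169 genes reached it. DESeq2 also called 0 members, where it called 6.61% of genes. The medians over members rested on single libraries. For INT against NINT the median log2 fold change was −0.91 with all libraries, 2.66 without NINT female 1 and −3.24 without INT female 1. In INT against F0 1 member was called, where 2.12% of genes were, and in NINT against F0 1 member was called, where 22.5% of genes were. It was Sfp51E in both. It was also the member whose F12 females all lay above the F0 females, 1 of 31 where 10.1% (INT) and 18.1% (NINT) of genes did so. In TMM-scaled CPM, Acp63F, Sfp33A2 and Sfp84E had every NINT female below every F0 female, 3 of 31 where 21% of genes did. In plain CPM these groups overlapped for all 3 genes, so this order depended on the scaling.

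Sfp51E (FBgn0259966; dm6 chromosome 2R, 15192628 to 15193228, minus strand) had 0, 1 and 0 counts in F0 females, 27, 12 and 18 in INT females and 59, 44 and 118 in NINT females. No F12 female overlapped the F0 females. The ratio of summed counts over F0, per library total, was 90.8 in INT (95% exact binomial interval 15.7 to 3648) and 260.5 in NINT (46.3 to 10334), covering counting error only. The adjusted p was 0.0188 in INT and 0.00381 in NINT. Within NINT the highest count was in NINT female 3 and not in NINT female 1. Within F0 and INT it was in F0 female 2 and INT female 1, which carried the traces. Whether the traces added to its counts was not tested.

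In males Sfp51E was well expressed in all groups, at 43.2, 59.4 and 64.2 CPM in F0, 67.0, 66.1 and 46.2 in INT and 40.7, 41.3 and 33.4 in NINT. F0 and INT overlapped, all NINT males lay below them, and no male comparison was called. The interaction, the log2 fold change of females less that of males, was 5.54 ± 0.90 for INT against F0 (adjusted p = 0.0151) and 7.35 ± 0.82 for NINT against F0 (adjusted p = 0.000605), where 0.555% and 8.15% of genes were called. For INT against NINT it was −1.81 ± 0.51 (adjusted p = 0.155), and no member was called in that interaction, where 0.268% of genes were. CG43829, 767 bases away on the same strand, had 0 counts in all 3 F0 females, 12 to 22 in INT females and 42 to 118 in NINT females, and 31 to 47 in F0 males, 141 to 275 in INT males and 80 to 136 in NINT males.

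Without F0 female 2, INT female 1 and NINT female 1, Sfp51E held 0 counts in F0, 12 and 18 in INT and 44 and 118 in NINT. The calls were then lost, with adjusted p = 0.496 in INT and 0.156 in NINT, in a fit that called 1 of 12993 genes in either comparison. The fitted log2 fold change was 5.58 in INT and 6.66 in NINT with all libraries, and over 17 other fits of each it lay between 4.99 and 7.67 in INT and between 6.08 and 8.87 in NINT. These fitted values depend on the prior count, since F0 females held 1 count or none. Without single libraries the adjusted p ranged from 0.0114 to 0.0808 in INT against F0, where it was over 0.05 without F0 female 1, F0 female 2, INT female 1 or INT female 2, and from 0.00157 to 0.0200 in NINT against F0.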

How the data were processed

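The deposited tables, 1 per sex, hold raw counts per gene, made by the authors from stranded libraries of Trizol-extracted whole-fly RNA, per the labels' protocols. The submitters' processing notes name dm6 and DESeq2 without giving versions, with the aligner, counting tool and strand setting not given in the sources used here. Whole-number count columns of all 18 libraries were used. Each sex (9 libraries, 3 groups) was fitted in R 4.3.3 with limma 3.58.1 and edgeR 4.0.16: TMM scaling, filterByExpr (minimum count 10, minimum total 15), 1 coefficient per group and the two-sided quasi-likelihood test, adjusted by Benjamini-Hochberg over all genes tested. Sexes were compared, and differences between sexes tested, in a fit of all 18 libraries. Fold changes put the group named first in the numerator. The test was checked on simulated counts. Levels are TMM-scaled CPM unless called plain. Female levels as a percentage of male levels use plain CPM.

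Alternatives were DESeq2 1.42.0, RLE and total-count scaling, no filter, a minimum of 5 CPM in 3 libraries, the 108 ribosomal RNA entries left out, a replicate block, each replicate left out, the 6 compared libraries only and males above 500 plain CPM of yolk genes left out. The fit without 3 female libraries and the tests of INT and NINT against F0 between sexes were chosen after seeing the data.

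The members and gene lists were chosen with earlier results of these data known. Named genes were members of described function, the 4 largest and 4 smallest changes in INT against NINT males, members called in a comparison within a sex, the 3 highest and 3 lowest levels per length, and the 5 with the highest female relative to male level. Of the lists, Ebp, EbpII, CG17012 and CG18125 were not found by symbol, and frma was left out because its symbols pointed to different genes. Exon and protein lengths came from an Ensembl annotation, in which all 48 members matched. Python 3.11.15, pandas 2.3.3, scipy and matplotlib 3.10.9 made tables and figures. Binomial intervals and floors cover counting error only.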

Additional observations from a re-analysis of the deposited data

Results flagged for a closer look

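Sfp51E differed between the sexes in its change from the founders. The interaction, the log2 fold change of females less that of males, was 5.54 for INT against F0 (edgeR, adjusted p = 0.0151) and 7.35 for NINT against F0 (adjusted p = 0.000605). Over 26 other fits the first remained called in 25 and the second in 26. The exception was the fit without F0 female 2, INT female 1 and NINT female 1, with an adjusted p of 0.105. The groups of 3 libraries were too small for the test for single outlying libraries.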

How the results depend on the processing

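With each library left out in turn, called members numbered 0 to 42 in INT against NINT males, 1 to 6 in INT against F0 males, 1 to 38 in NINT against F0 males, 0 to 2 in INT against F0 females, 1 to 3 in NINT against F0 females and 0 to 1 in the interaction of INT against NINT with sex. Median log2 fold changes then ranged from −3.24 to 2.66 (INT against NINT), −2.19 to 3.33 (INT against F0) and −2.51 to 4.19 (NINT against F0) in females, and from 8.69 to 12.5, 8.62 to 12.3 and 6.15 to 11.1 for males over females in F0, INT and NINT. In INT against NINT males the fold changes ranged from −0.25 to 0.19 for Sfp24C1, −0.14 to 0.10 for Acp26Ab and −0.17 to 0.42 for Acp98AB. DESeq2 called 20 members in INT against NINT, 6 in INT against F0 and 27 in NINT against F0 males, where it called 6.21%, 9.41% and 20.8% of all genes. It called 2 members in NINT against F0 females, where it called 34.2% of all genes, and 1 in the interaction. With only the 6 compared libraries, 1 (INT against F0) and 36 (NINT against F0) members were called in males, beside 0.303% and 32.5% of all genes, and 0 in INT against F0 females, and the female medians were −0.37 (INT against F0) and −0.25 (NINT against F0).

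Without males above 500 plain CPM of yolk genes, 0 members were called in INT and in NINT against F0, the median for INT against F0 was −0.069 and Sfp96F stood at 0.19 in INT against NINT. A filter of 5 CPM in 3 libraries left 3 members in females, called 0 in INT and in NINT against F0, and gave a median of −0.66 for INT against F0. Total-count scaling called 3 members in NINT against F0 females, where it moved the median of all genes to 0.89. Leaving out ribosomal RNA raised the F0 female sum to 82.0 plain CPM. Without F0 female 2, INT female 1 and NINT female 1, 0 members were called in INT and in NINT against F0 females, the female medians were 0.66 (INT against NINT), −0.34 (INT against F0) and −0.85 (NINT against F0), and those of males over females were 12.5, 12.3 and 11.05. The causes of these changes were not tested, apart from fewer members or libraries entering a fit.

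The main fits did not treat same-numbered libraries as paired. Correlations of same-numbered libraries, as deviations from their group means, ran from −0.58 to 0.52. They cannot decide whether the libraries were paired, since differently numbered libraries were not set beside them. The replicate block called 1 member in INT against F0 and 1 in NINT against F0 males and 0 in INT against F0 females, with female medians of −0.996 (INT against F0) and −0.70 (NINT against F0). RLE scaling and no filter on low counts kept every count of called members within 1.5 times. Members with few female counts limit what the female comparisons can show at this depth.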
